A study of Homo sapiens with 12 samples.

Results

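Expression was examined for 7 genes that are textbook targets of cytokine signalling: the suppressors of cytokine signalling CISH, SOCS1, SOCS2 and SOCS3, and the PIM kinases PIM1, PIM2 and PIM3. They were picked by gene symbol from a count table of 54628 genes. All 7 were among the 15492 genes that passed the filter on low counts. The question addressed was whether a short pulse of stem cell factor (SCF) moved the genes known as targets of STAT5, and whether that response differed when induction of the transcription factor EGR1 was targeted.

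RNA-seq was performed on HUDEP-2, a human line of immortalised red cell precursors that is expanded with SCF, erythropoietin, dexamethasone and doxycycline. All cells carried a lentiviral guide together with dCas9-KRAB, the repressor used for CRISPR interference, and were sorted as a GFP-positive pool and not as single clones. The guide was either a scrambled control (sgControl) or one placed before EGR1 (sgEGR1). After 5 h of starvation in medium listed without SCF, erythropoietin, dexamethasone or doxycycline, cells received PBS or 50 ng/mL SCF for 1 h. The 4 groups (sgControl PBS, sgControl SCF, sgEGR1 PBS and sgEGR1 SCF) each held 3 libraries, which the study describes as biological replicates.

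SCF is the ligand of the receptor tyrosine kinase Kit. Cytokine receptors such as the erythropoietin receptor signal through Janus kinases, which phosphorylate STAT proteins, and STAT5 is the main STAT of the erythropoietin response in red cell precursors. STAT5 binds DNA as a dimer and induces CISH, SOCS genes and PIM genes. The CISH and SOCS proteins then dampen signalling at the receptor or the kinase, whereas the PIM proteins are serine/threonine kinases that favour survival and growth. Only RNA was examined here, and not the amount or activity of these proteins. The study describes Kit as acting through factors that depend on STAT5, ERK and PI3K. Early response genes of the ERK pathway include EGR1.

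The guide that defines the sgEGR1 genotype is shown first, followed by its PAM in capitals. It had 1 exact match in hg38, at chr5:138464830-138464849 on the plus strand, 630 bases before the annotated start of EGR1.
sgEGR1 guide with PAM: ggatgacagcgatagaacccCGG

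The promoter of CISH is shown because CISH had the largest increase among the 7 genes and because the letters of the STAT consensus, TTCNNNGAA, occur in it 4 times. The window runs from 250 bases before to 50 bases after the start, at chr3:50611725-50612024 of GRCh38.p14 on the minus strand, and was taken from RefSeq. The 4 matches are in capitals and lie at -241 to -233, -230 to -222, -129 to -121 and -112 to -104, where -1 is the base just before the start.
CISH promoter: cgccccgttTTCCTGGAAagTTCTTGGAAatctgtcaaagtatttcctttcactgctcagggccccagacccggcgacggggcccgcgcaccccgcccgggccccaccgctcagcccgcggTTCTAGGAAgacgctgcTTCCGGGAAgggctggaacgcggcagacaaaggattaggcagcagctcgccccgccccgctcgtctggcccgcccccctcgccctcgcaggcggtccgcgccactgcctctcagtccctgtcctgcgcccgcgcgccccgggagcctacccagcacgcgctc

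At least 1 match to TTCNNNGAA was present in 7.66% of the 34943 promoter windows of the same length, 2 or more matches in 0.455%, and 4 or more matches in 7 windows. The windows of SOCS1, SOCS3 (2 start sites), PIM1, PIM2 and PIM3 held 0 matches to these letters. SOCS2 had no entry in the table. Other motifs were searched on both strands in the windows of the 6 genes with an entry. The AP-1 letters TGANTCA, the CRE letters TGACGTCA and the GATA letters AGATAA had 0 matches, and they were found in 7.72%, 1.84% and 10.4% of all windows. The EGR letters GCGTGGG, present in 6.98% of all windows, had 1 match, in a SOCS3 window at -64 to -58. These are matches of letters and were not tested as binding sites.

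Library totals ranged from 23.5 to 32 megacounts, so that 3 counts, taken as the detection floor, corresponded to 0.0937 to 0.128 counts per megacount (CPM). EGR1, the gene next to the guide site, stood at 10.9, 5.99 and 7.45 CPM in the sgControl PBS libraries and at 2.04, 1.12 and 0.977 CPM in the sgEGR1 PBS libraries. After SCF it stood at 207, 239 and 171 CPM in sgControl cells and at 40.4, 57.4 and 204 CPM in sgEGR1 cells. By its EGR1 level, the library labelled sgEGR1 SCF replicate 3 therefore went against its label. Here and below that wording refers to EGR1 only, and whether the label itself is wrong was not tested. The sgEGR1 SCF values of the 7 genes are given with and without this library. Between the genotypes after SCF, EGR1 differed by -1.03 on the log2 scale with all libraries (edgeR adjusted p = 1). It differed by -2.08 when that library was left out. The library was picked by its EGR1 value, so that -2.08 is a description and not a test of EGR1. Replicate 1 stood apart from replicates 2 and 3 in every group, and the 7 genes were also fitted within replicates 2 and 3. All 14 erythroid markers passed the filter on low counts, though HBG1 stood at 0 CPM in its lowest sgControl PBS library. Their summed levels were 26970 to 31030 CPM in sgControl PBS and 26100 to 29710 CPM in sgControl SCF libraries. In the sgEGR1 PBS and SCF libraries they were 28620 to 29360 CPM and 27410 to 27550 CPM. HBB, at 15000 CPM on average in sgControl PBS libraries, weighed most in these sums, which do not show single markers. HBG1 averaged 36.5 CPM in sgControl PBS and 131 CPM in sgEGR1 PBS libraries, and HBG2 31.4 and 77.3 CPM. After PBS, 7 of the 14 were higher in sgEGR1 cells and 0 were called. The myeloid markers MPO and ELANE, the platelet genes PF4, PPBP and GP9 and the lymphoid markers CD3E, MS4A1 and IL7R had 0 counts in every library. The myeloid list summed to at most 0.719 CPM and the lymphoid list to at most 0.44 CPM. The megakaryocyte list, carried by ITGA2B and ITGB3, ranged from 12.2 to 35.6 CPM.

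The 7 genes differed widely in level. Per kilobase of annotated exon, PIM1 was the most abundant in sgControl PBS cells at 34.1 ± 1.13 CPM per kilobase (SD, n = 3), followed by PIM3 at 8.75 ± 0.731. PIM2 and CISH followed at 5.38 ± 0.359 and 4.84 ± 0.288 CPM per kilobase. Their lowest and highest libraries were 5.13 and 5.79 for PIM2 and 4.54 and 5.12 for CISH. By this length these neighbours were barely separated. SOCS1 stood at 3.24 ± 0.456 and SOCS2 at 2.27 ± 0.205 CPM per kilobase. SOCS3 was lowest at 0.146 ± 0.0939 CPM per kilobase, with 5 to 22 counts in a library, just above the floor.

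Per kilobase of annotated exon, the order changed with SCF. In sgControl SCF cells CISH reached 8.92 ± 1.2 CPM per kilobase and lay above PIM2 at 6.58 ± 0.261, and SOCS2 at 3.31 ± 0.17 lay above SOCS1 at 1.83 ± 0.534. PIM1 at 23.7 ± 1.94 and PIM3 at 13.6 ± 1.99 CPM per kilobase came closer to each other and kept their places. The order of SOCS1 and SOCS2 depended on the length used, and so did the gap between CISH and PIM2. With the longest transcript in place of all annotated exons, SOCS2 stood at 3.94 and SOCS1 at 3.25 CPM per kilobase in sgControl PBS cells. By that length PIM2 and CISH stood at 7.16 and 4.86 in sgControl PBS cells and at 8.76 and 8.94 in sgControl SCF cells.

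**Figure D1:**
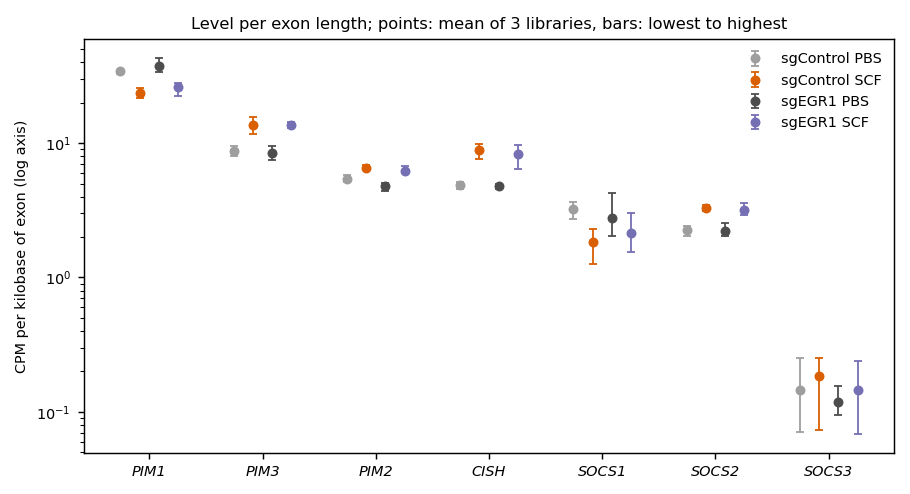
Level of each gene in CPM per kilobase of annotated exon on a log axis, with genes in order of their sgControl PBS level. Points are means of 3 libraries and bars run from the lowest to the highest library. PIM1 lies highest in all 4 groups (23.7 to 37.4 CPM per kilobase) and SOCS3 lowest (0.118 to 0.185).

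SCF changed the amounts of 5 of the 7 genes, in unequal directions. Averaged over both guide groups, CISH rose 1.79-fold, PIM3 1.58-fold, SOCS2 1.44-fold and PIM2 1.26-fold, whereas PIM1 fell to 0.697 of its PBS level. SOCS1 and SOCS3 did not pass the test. In bulk RNA a change in the cells that express a gene and a change in RNA per cell cannot be told apart. The changes were called with the quasi-likelihood test of edgeR at an adjusted p under 0.05 over all genes tested. Of all genes, 5.58% were called higher and 3.45% lower after SCF in this average response, against 4 and 1 of the 7. The median log2 fold change was 0.34 for the 7 genes and -0.004 for all genes tested.

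Within the guide groups, 3 of the 7 genes were called higher (CISH, SOCS2 and PIM3) and 1 lower (PIM1) in sgControl cells, where 2.12% of all genes were called higher and 0.775% lower. In sgEGR1 cells 4 were called higher (CISH, SOCS2, PIM2 and PIM3) and 1 lower (PIM1), where 1.81% of all genes were called higher and 0.788% lower. For these 5 genes the SCF and PBS libraries did not overlap in either guide group. An exact two-sided permutation of log2 CPM within guide groups gave p = 0.005 for each of the 5, which is the smallest that its 400 arrangements can give. Within 1 guide group 3 libraries against 3 cannot go below p = 0.1 by such a permutation.

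**Figure D2:**
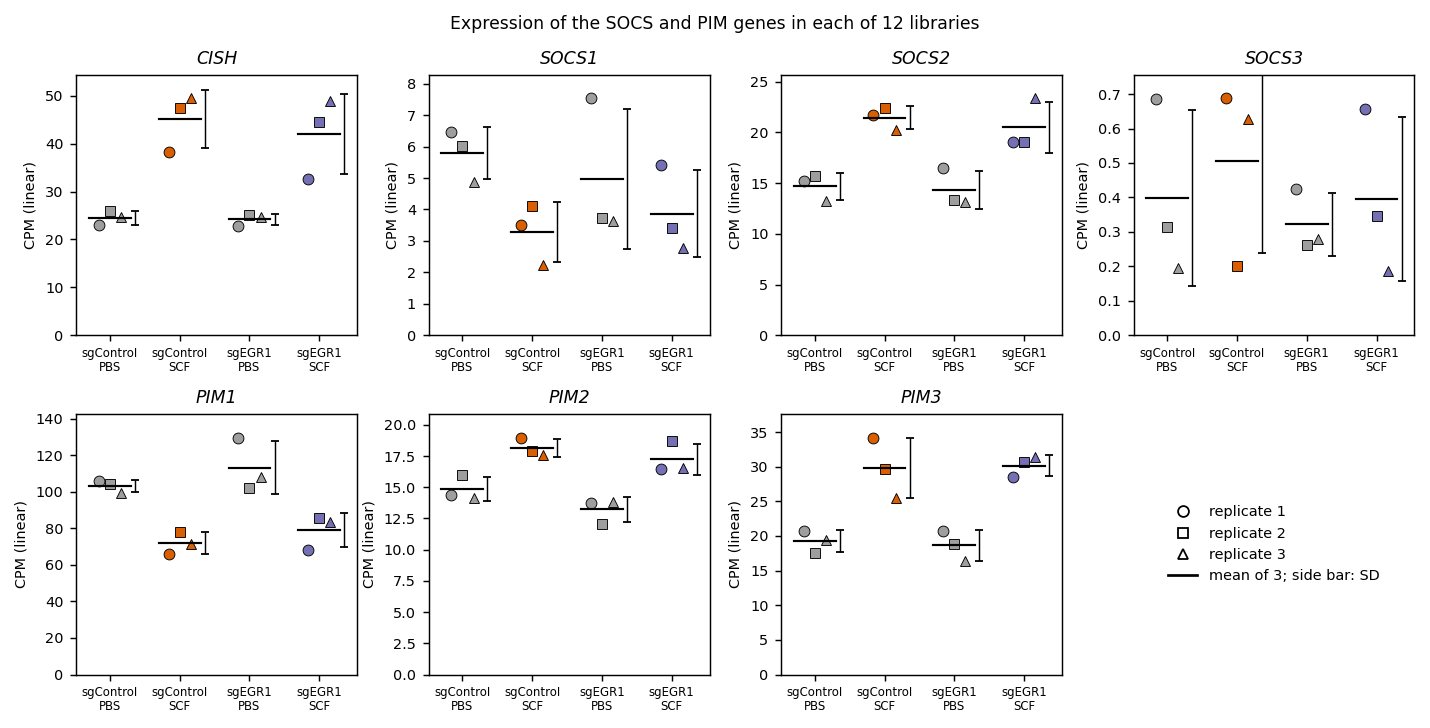
CPM of each gene in each of the 12 libraries, on linear axes that start at 0. Symbols give the replicate number, horizontal lines the mean of 3 libraries and side bars the SD. SCF libraries of CISH (32.7 to 49.5 CPM) lie above all its PBS libraries (22.9 to 25.9 CPM), those of PIM1 (66.2 to 85.5 CPM) lie below all its PBS libraries (99.4 to 129.6 CPM), and SOCS3 stays under 0.69 CPM in every library.

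CISH, the founding member of the suppressor family and a feedback inhibitor of cytokine receptors that use STAT5, showed the largest increase. In sgControl cells it measured 22.98, 25.9 and 24.6 CPM after PBS and 38.2, 47.6 and 49.5 CPM after SCF. In sgEGR1 cells it measured 22.9, 25.1 and 24.6 CPM after PBS and 32.7, 44.5 and 49.0 CPM after SCF. The PBS libraries thus lay within 3 CPM of each other in both genotypes, and replicate 1 was the lowest SCF library in both. The log2 fold change was 0.88 (SE 0.135, edgeR adjusted p = 0.0043) in sgControl cells and 0.80 (SE 0.135, edgeR adjusted p = 0.00828) in sgEGR1 cells. Within replicates 2 and 3 it was 0.94 and 0.91. The sgEGR1 value was 0.67 when the library that went against its label was left out (edgeR adjusted p = 0.0375). The gene lies at chr3:50606489-50611774 on the minus strand (GRCh38, GENCODE v44). Its exons overlap exons of MAPKAPK3 on the other strand, with a longest single overlap of 218 bases. Since use of strand in the counting was not stated, reads of the overlap cannot be assigned with certainty. MAPKAPK3 itself changed by 0.08 (SE 0.0447) in the average response and was not called (edgeR adjusted p = 0.362).

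SOCS2, a suppressor best known for limiting growth hormone signalling, rose by a smaller factor. It measured 15.2, 15.7 and 13.2 CPM after PBS and 21.7, 22.4 and 20.2 CPM after SCF in sgControl cells. In sgEGR1 cells the values were 16.5, 13.3 and 13.1 CPM after PBS and 19.0, 19.1 and 23.4 CPM after SCF. The lowest SCF library exceeded the highest PBS library by more in sgControl than in sgEGR1 cells, where the highest value came from the library labelled sgEGR1 SCF replicate 3. Its log2 fold change was 0.54 (SE 0.112, edgeR adjusted p = 0.0231) in sgControl cells and 0.52 (SE 0.112, edgeR adjusted p = 0.0312) in sgEGR1 cells. Without that library the sgEGR1 value was 0.41 and no longer passed (edgeR adjusted p = 0.117). Exons of SOCS2 (chr12:93569814-93583487, plus strand) overlap exons of the antisense gene SOCS2-AS1, with a longest single overlap of 202 bases. SOCS2-AS1 was listed at 0.411 to 0.839 CPM on average in the 4 groups, far below SOCS2.

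SOCS1, which binds Janus kinases directly and inhibits their activity, was the only suppressor gene with lower values after SCF. In sgControl cells it measured 6.47, 6.03 and 4.89 CPM after PBS and 3.50, 4.10 and 2.23 CPM after SCF. In sgEGR1 cells it measured 7.54, 3.73 and 3.63 CPM after PBS and 5.42, 3.40 and 2.78 CPM after SCF. The groups did not overlap in sgControl cells and overlapped in sgEGR1 cells, where replicate 1 was high in both treatments. The log2 fold change was -0.82 (SE 0.327, edgeR adjusted p = 0.26) in sgControl cells and -0.36 (SE 0.327, edgeR adjusted p = 0.695) in sgEGR1 cells, or -0.16 there without the library that went against its label. The fall in sgControl cells passed in 3 of 7 alternative fits (the 1.5-fold test apart), with log2 fold changes from -0.836 to -0.786. It passed in 0 of the 12 fits with 1 library left out. The average of -0.59 had an edgeR adjusted p of 0.146 and an exact permutation p of 0.055. With a term for replicate 1 in the model, the average was -0.58 and passed (edgeR adjusted p = 0.0243), and when the library of sgEGR1 SCF replicate 3 was left out as well it was -0.52 (edgeR adjusted p = 0.0591). Within replicates 2 and 3 the average was -0.52 (edgeR adjusted p = 0.0988).

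SOCS3, the suppressor most closely tied to STAT3 and the receptors that share IL6ST, was scarcely expressed. Its libraries ranged from 0.187 to 0.688 CPM, and the groups overlapped in both genotypes. The log2 fold change of the average response was 0.32 with a 95% interval from -0.63 to 1.26, so that an increase as large as that of CISH lay within the interval at this depth. In sgEGR1 cells the value was 0.30 with all libraries and 0.65 without the library that went against its label.

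PIM1, the kinase that is the classical STAT5-induced member of its family, fell. It measured 106, 104 and 99.4 CPM after PBS and 66.2, 77.9 and 71.5 CPM after SCF in sgControl cells. In sgEGR1 cells it measured 129.6, 102 and 108 CPM after PBS and 68.1, 85.5 and 83.2 CPM after SCF. Every SCF library was below every PBS library of both genotypes, and replicate 1 was the highest PBS and the lowest SCF library in both. SCF changed PIM1 by -0.52 on the log2 scale (SE 0.101) in both genotypes, with an edgeR adjusted p of 0.0165 in sgControl and 0.0185 in sgEGR1 cells. With the library that went against its label left out, the sgEGR1 value was -0.56 (edgeR adjusted p = 0.0446). Within replicates 2 and 3 it was -0.44 (edgeR adjusted p = 0.00202) in sgControl and -0.32 (edgeR adjusted p = 0.0098) in sgEGR1 cells, the latter being smaller than the value from all libraries by more than 1.5-fold on the log2 scale.

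PIM2 rose by the smallest factor among the called genes. It measured 14.4, 15.99 and 14.2 CPM after PBS and 19.0, 17.9 and 17.6 CPM after SCF in sgControl cells. In sgEGR1 cells it measured 13.8, 12.1 and 13.9 CPM after PBS and 16.5, 18.7 and 16.6 CPM after SCF. The SCF libraries lay above the PBS libraries in both genotypes by a narrow margin. The log2 fold change was 0.38 (SE 0.084, edgeR adjusted p = 0.0326) in sgEGR1 cells. In sgControl cells it was 0.29 (SE 0.0834) and did not pass (edgeR adjusted p = 0.0963), while DESeq2 gave an adjusted p of 0.0467. The difference between the genotypes was itself not called. When the library labelled sgEGR1 SCF replicate 3 was left out, the sgEGR1 value was 0.41 (edgeR adjusted p = 0.0698).

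PIM3, the third kinase of the family, rose together with CISH and SOCS2. It measured 20.8, 17.6 and 19.4 CPM after PBS and 34.2, 29.7 and 25.5 CPM after SCF in sgControl cells. In sgEGR1 cells it measured 20.7, 18.9 and 16.4 CPM after PBS and 28.5, 30.6 and 31.4 CPM after SCF. The groups were separated in both genotypes, by a gap of more than 4 CPM. For PIM3 the log2 fold change was 0.63 (SE 0.113, edgeR adjusted p = 0.0114) in sgControl cells and 0.70 (SE 0.113, edgeR adjusted p = 0.00638) in sgEGR1 cells, where it was 0.67 when the library that went against its label was left out (edgeR adjusted p = 0.0298). The PIM kinases, which share most of their known substrates, therefore divided into PIM1, which fell, and PIM2 and PIM3, which rose, and PIM1 remained the most abundant of them per kilobase.

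**Figure D3:**
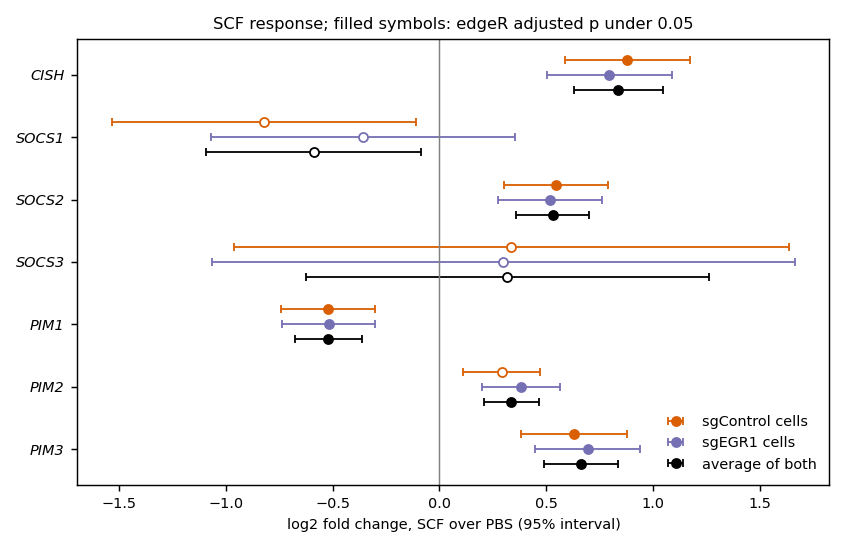
log2 fold change of SCF over PBS for each gene in sgControl cells, in sgEGR1 cells and on average, with 95% intervals from the edgeR fit of all 12 libraries. Filled symbols passed an adjusted p of 0.05. The average estimates run from 0.84 for CISH to -0.59 for SOCS1, and the interval of SOCS3 is the widest.

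In the average response, all 5 calls held when any 1 of the 12 libraries was left out, and within each guide group fewer did. In sgControl cells CISH was called in all 12 such fits, PIM3 in 10, and SOCS2 and PIM1 in 7 each. The fits named next for these cells are those without an sgControl library. CISH was the only gene called without sgControl PBS replicate 2 or replicate 3. CISH and PIM3 were called without sgControl SCF replicate 1, and 3 genes were called without sgControl PBS replicate 1 (PIM1 lost, adjusted p = 0.0523), sgControl SCF replicate 2 (SOCS2 lost, adjusted p = 0.0815) or sgControl SCF replicate 3 (PIM1 lost, adjusted p = 0.066). In sgEGR1 cells CISH and PIM3 were called in all 12 fits. Without sgEGR1 PBS replicate 3 only these 2 were called. PIM1 was also called without sgEGR1 PBS replicate 2, sgEGR1 SCF replicate 2 or the library labelled sgEGR1 SCF replicate 3, and SOCS2 was also called without sgEGR1 SCF replicate 1. PIM2 was the only call lost without sgEGR1 PBS replicate 1 (adjusted p = 0.0507) or sgControl SCF replicate 2 (adjusted p = 0.0511). When a change of more than 1.5-fold was required by the test itself, 0 of the 7 genes were called in any of the 3 SCF comparisons, although 6 had an unadjusted p under 0.05 in the average response with no minimum change.

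No difference between the genotypes was called for the 7 genes. After PBS, the log2 difference of sgEGR1 from sgControl cells ranged from -0.33 for SOCS3 to 0.13 for PIM1, and after SCF from -0.36 for SOCS3 to 0.24 for SOCS1. None of the 7 was called by edgeR in either comparison, 0 had an unadjusted p under 0.05, and DESeq2 called 0. The share of all genes called by edgeR was 0% in both comparisons, with 715 genes at an unadjusted p under 0.05 after PBS and 361 after SCF, and DESeq2 called 19 and 4 genes. When the library that went against its label was left out, edgeR called 1 gene after PBS and 2 after SCF, and with a term for replicate 1 as well it called 51 and 38 genes, of which 0 were among the 7. EGR1, by whose value the library was picked, was among the 2 called after SCF, so that its call is not a test. Without that library the differences after SCF ranged from -0.23 for CISH to 0.43 for SOCS1, and that of PIM3 moved from 0.02 to -0.01. PIM2 came closest after PBS, with 13.2 ± 1 CPM in sgEGR1 and 14.9 ± 0.992 CPM in sgControl cells (SD, n = 3), libraries that did not overlap, and an unadjusted edgeR p of 0.0717.

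The SCF response itself was also compared between genotypes, as an interaction. It was called for 0 of the 7 genes by edgeR and by DESeq2, and for 0% of all genes by edgeR, with 306 genes and none of the 7 at an unadjusted p under 0.05. DESeq2 called 2 genes in all. For CISH the sgEGR1 response differed from the sgControl response by -0.08 on the log2 scale, with a 95% interval from -0.50 to 0.33. The intervals ran from -0.31 to 0.31 for PIM1, from -0.17 to 0.35 for PIM2, from -0.28 to 0.41 for PIM3 and from -0.37 to 0.32 for SOCS2. For SOCS1 the interval from -0.54 to 1.47 and for SOCS3 that from -1.97 to 1.90 were too wide to bound the difference closely. When the library that went against its label was left out, the interaction was -0.21 for CISH (interval -0.61 to 0.19), -0.13 for SOCS2 (interval -0.46 to 0.20) and 0.12 for PIM2 (interval -0.16 to 0.40). It was then -0.04 for PIM1 (interval -0.37 to 0.30), 0.04 for PIM3 (interval -0.35 to 0.42), 0.66 for SOCS1 (interval -0.37 to 1.69) and 0.31 for SOCS3 (interval -1.60 to 2.22), and edgeR called 2 genes in all and none of the 7. The interaction of EGR1 was 1.56 (SE 0.949, edgeR adjusted p = 1) with all libraries. It was 0.51 (SE 0.416) without that library, which had been picked by its EGR1 value.

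The counts of the following lists are to be read against the 5.58% of all genes called higher and the 3.45% called lower in the average response. The lists were chosen with earlier results of these data known, so that their counts are descriptions and not tests. Other genes known as STAT5 targets moved in both directions. Of 10 listed, 8 were tested, and 3 rose and 1 fell in the average response (median log2 fold change 0.13). MCL1, which encodes an anti-apoptotic BCL2 family protein, changed by 0.93 (SE 0.0349) with an edgeR adjusted p of 4.08e-08, from 116 ± 0.778 to 218 ± 6.76 CPM in sgControl cells (SD, n = 3). CCND1, which encodes cyclin D1, changed by 0.79 and the cytokine gene OSM by 1.06, with edgeR adjusted p-values of 0.000142 and 0.00356. OSM was low, at 0.822 ± 0.0832 CPM after PBS in sgControl cells. BCL6, a transcriptional repressor that STAT5 is known to repress, fell by 0.84 (edgeR adjusted p = 0.000521). The remaining 4 tested genes of the list (BCL2L1, CCND2, ID1 and TFRC) did not pass.

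The genes of the signalling chain itself were called at about the share of all genes. Of 15 listed kinases, STATs and receptors, 13 were tested and 1 was called, EPOR, the erythropoietin receptor gene, by -0.14 on the log2 scale (edgeR adjusted p = 0.036). The median of the list was -0.02. KIT, the receptor of SCF, stood at 497 ± 31.1 CPM after PBS and 493 ± 10.1 CPM after SCF in sgControl cells, and STAT5A and STAT5B at 147 ± 18.2 and 139 ± 9.69 CPM after PBS (SD, n = 3). Among 14 other negative regulators of the pathway, all tested, 3 rose (5.58% of all genes did) and 0 fell, with a median of 0.06. SOCS4, a family member linked mainly to receptor tyrosine kinases, changed by 0.36, the phosphatase gene PTPN1 by 0.29 and the adaptor gene SH2B3, whose product restrains Kit and JAK2 signalling, by 0.29, with edgeR adjusted p-values of 0.000572, 0.000648 and 0.0234. SOCS5, SOCS6 and SOCS7 did not pass.

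Early response genes of the ERK pathway rose over a wide range. Of 16 listed, 14 were tested and 12 rose, against 5.58% of all genes, with a median log2 fold change of 2.26. FOSL1, a component of AP-1, changed by 2.94, DUSP6, a phosphatase of ERK, by 2.42, the early response gene IER2 by 1.33 and EGR2 by 2.40, with edgeR adjusted p-values of 8.8e-09, 1.22e-06, 2.12e-06 and 3.54e-06. CISH, at 0.84, lay below the median of this list but level with SPRED1 at 0.84 and above JUNB at 0.69, both of which were called. The difference between the lists was not tested.

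Genes whose products are PIM substrates or growth partners were given as the last list. Of 11, all tested, 2 rose and 2 fell, against 5.58% and 3.45% of all genes, with a median of 0.01. MYC, which cooperates with PIM kinases in lymphoma models, changed by 0.95 and the phosphatase gene CDC25A by 0.88, with edgeR adjusted p-values of 2.12e-06 and 1.15e-06. CDKN1B, which encodes the cell cycle inhibitor p27, fell by 0.69 and FOXO3 fell by 0.19, with edgeR adjusted p-values of 4.5e-06 and 0.0195.

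**Figure D4:**
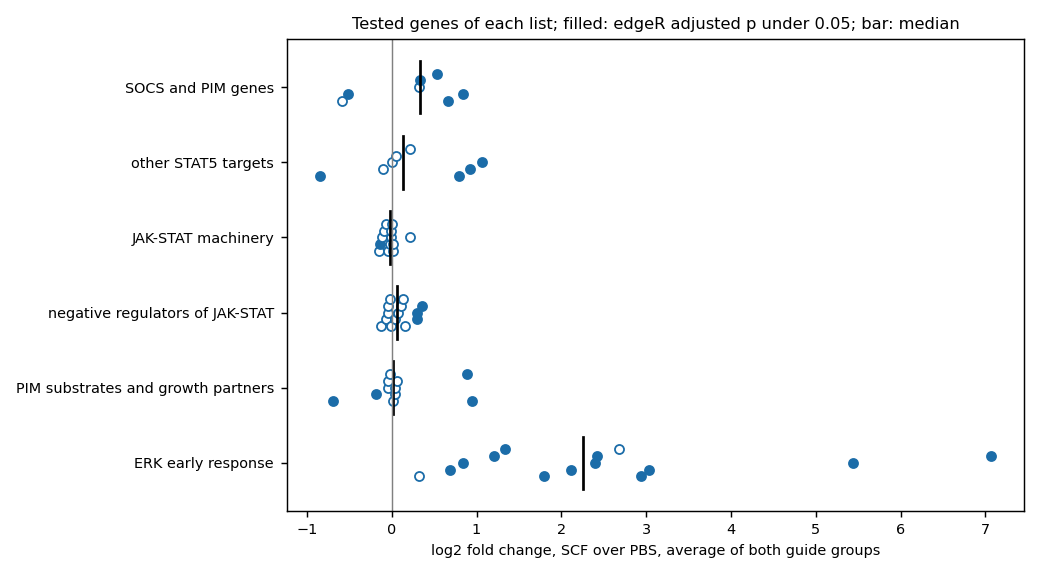
log2 fold change of the average SCF response for every tested gene of 6 lists. Each point is a gene, filled where the edgeR adjusted p was under 0.05, and bars mark the median of a list. The medians are 0.34 for the SOCS and PIM genes, 0.13 for other STAT5 targets, -0.02 for the JAK-STAT machinery, 0.06 for negative regulators, 0.01 for PIM substrates and growth partners and 2.26 for the ERK early response.

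For each gene above 2 CPM, the 2 other genes with the most similar profile were found by Pearson's r of log2 CPM over the 12 libraries among 9857 genes. These correlations are descriptions over libraries that share group, number and depth. The profile of CISH was most like those of MYADM (r = 0.981) and NOP56 (r = 0.979). SOCS2 was closest to C11orf24 (r = 0.957) and HNRNPA0 (r = 0.95), and SOCS1 to SEMA6B (r = 0.944) and the small nucleolar RNA host gene SNHG12 (r = 0.916). PIM1 was closest to HBP1 (r = 0.976), a transcriptional repressor of cell cycle genes, and to TXNIP (r = 0.969), which encodes a thioredoxin-interacting protein. PIM2 was closest to the splicing factor gene SRSF2 (r = 0.951) and YRDC (r = 0.925), and PIM3 to GORASP2 (r = 0.969) and IER2 (r = 0.967).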

How the data were processed

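Per the study's methods and the labels, the authors used HISAT and hg38 for alignment and StringTie for gene quantification. The deposited values are estimated counts, 1 column per library and not scaled for depth or length. All deposited values were whole, and 0 columns of per-sample values were left unmapped. The column code SG2 was taken as sgEGR1, the only construct beside the scrambled control. The annotation release, the rule for multi-mapping reads and the use of strand in counting are not given in the sources used here, and the labels and methods name different library kits.

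Counts were filtered with filterByExpr, scaled with TMM factors (0.974 to 1.02) and tested by edgeR 4.0.16 (quasi-likelihood, R 4.3.3) in a model of the 4 groups fitted to all 12 libraries. P-values were adjusted by Benjamini-Hochberg over 15492 genes and called under 0.05. The 95% intervals come from the same fit. Alternatives were DESeq2 1.42.0, RLE factors, no filter, a replicate block, a term for replicate 1, replicates 2 and 3 alone, a tested change of more than 1.5-fold and each library left out.

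The 7 genes and all lists were chosen with earlier results of these data known. Named genes are the 7, EGR1, the 2 most similar genes above 5 CPM per member, and the called genes of each list, at most 4 per direction by lowest p. KIT, STAT5A, STAT5B, MAPKAPK3, SOCS2-AS1, JUNB, SPRED1, the marker genes and list members that did not pass were named outside this rule. Lengths and coordinates are from GENCODE v44 and promoters from RefSeq (GRCh38.p14). Residuals of same-numbered libraries correlated at 0.102 to 0.269 between genotypes and at 0.008 to 0.272 between treatments. The highest value was that of replicate 1 in each pair of groups. Differently numbered libraries were not compared, so that whether the numbers pair libraries was not settled. The main model held no pairing and left this shared spread in its error, and the replicate block is among the alternatives. No libraries of a group agreed within sampling noise. Floors cover counting error only. The sgControl guide sequence and 1 marker gene are not reported here.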

Additional observations from a re-analysis of the deposited data

How the results depend on the processing

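Of 20 alternatives for each comparison, the count of the 7 genes called stayed within 1.5 times in 16 for SCF in sgControl cells, in 14 for SCF in sgEGR1 cells and in 19 for the average response, and it was 0 in all alternatives for both genotype comparisons and the interaction. With a change of more than 1.5-fold tested, it was 0 in each SCF comparison, where the rule itself is stricter and edgeR called 18 of all genes in sgControl cells. With 1 library left out it ranged from 1 to 4 in sgControl cells, from 2 to 5 in sgEGR1 cells and stayed at 5 on average. With the replicate block it was 5, 5 and 6, and SOCS1 was added in sgControl cells (adjusted p = 0.0262) and on average (adjusted p = 0.0136). The block called none of the 7 between genotypes. Over all genes it raised the SCF calls from 448 to 1184 in sgControl cells and from 402 to 1235 in sgEGR1 cells.

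Signs turned only among values that did not pass. Within replicates 2 and 3, SOCS3 turned to -0.027 for SCF in sgEGR1 cells and to 0.082 between genotypes after PBS, SOCS1 to -0.041 between genotypes after SCF, and the SOCS2 interaction to 0.116. The PIM1 interaction was -0.003 with DESeq2 and -0.005 without the filter. With a term for replicate 1, and sgEGR1 SCF replicate 3 left out, an alternative chosen after seeing the data, PIM3 turned to -0.033 between genotypes after SCF, and the interactions of PIM1 and SOCS3 to -0.033 and 0.039. Leaving out 1 library gave ranges that crossed 0 for SCF in sgEGR1 cells for SOCS1 (-0.676 to 0.071) and SOCS3 (-0.262 to 0.646). Between genotypes after PBS this held for CISH (-0.059 to 0.024), SOCS2 (-0.153 to 0.021), SOCS3 (-0.647 to 0.326) and PIM3 (-0.131 to 0.041), and after SCF for CISH (-0.228 to 0.053), SOCS1 (-0.085 to 0.426) and PIM3 (-0.082 to 0.125). Of the interactions it held for CISH (-0.209 to 0.068), SOCS2 (-0.132 to 0.084), SOCS3 (-0.687 to 0.307), PIM1 (-0.067 to 0.11) and PIM3 (-0.036 to 0.176). The cause was not tested. Depth limits SOCS3, at 5 to 22 counts.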

Other observations

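The response of all tested genes was also grouped by the letters in their promoter windows, as a description without a test. Of 10895 tested genes with a window, 6.31% were called higher and 3.49% lower in the average SCF response. Of the 903 with at least 1 match to the STAT letters TTCNNNGAA, 6.31% were called higher and 4.1% lower. Of the 48 genes with 2 or more matches, 1 was called higher and 5 lower. The gene called higher was CISH. Among those called lower was BCL6, which, like CISH, had 4 matches in its window and changed by -0.84 on the log2 scale (edgeR adjusted p = 0.000521). The other 4 were ZNF227, SYMPK, ZNF407 and BRD8, with 2 matches each and log2 fold changes from -0.31 to -0.14. These genes were named after their values were seen. The shares called higher were 5.36% of the 727 genes with the AP-1 letters, 6.56% of the 1372 with the EGR letters, 9.05% of the 409 with the CRE letters and 5.21% of the 844 with the GATA letters.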
